A study of Mus musculus with 16 samples.

Results

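The NR4A receptors and a set of immediate early genes were examined in RNA of the tibialis anterior, a fast-twitch muscle at the front of the lower hindlimb. The 10 genes were taken by symbol from the deposited table: the NR4A nuclear receptors Nr4a1, Nr4a2 and Nr4a3, the transcription factors Fos, Junb, Egr1 and Atf3, the phosphatase gene Dusp1, the salt-inducible kinase gene Sik1 and the anti-proliferative gene Btg2. All 10 had a row among the 14538 genes of the table, and all 10 were among the 11841 genes tested. The mice were wild-type animals, C57BL/6 by the labels and C57BL/6J in the study's methods. They entered a NASH diet, rich in fat and fructose, and warm housing near 29 °C at 8 weeks of age. The study's methods describe group housing, and single housing once the mice were divided into treatment groups. The Vehicle group (5 mice) received vehicle, the GDF15 group (6 mice) received recombinant GDF15, a stress-induced cytokine that lowers food intake, under the skin each morning, and the PairFed group (5 mice) had its daily ration set by what the GDF15 mice ate, with a lag of a day. The study's methods state that its mice were male, that they were killed in the fed state and that anaesthesia was used. The labels do not give the GDF15 dose of these mice, and the sources used here do not state the interval between the last injection and collection of the muscles that were sequenced. For noradrenaline measurements in tissues including this muscle the study does state a dose and an interval, without saying whether the same mice were used. The question behind the design was how the muscle of GDF15-treated mice differed from that of mice eating the same amount.

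Immediate early genes are transcribed within minutes of a stimulus from factors already present in the cell, and their messenger RNAs are short-lived. In muscle they respond to contraction, to β-adrenergic agonists acting through cAMP, protein kinase A and the factor CREB, and to growth factor and stress signals acting through MAP kinases. NR4A receptors are orphan nuclear receptors whose activity follows their amount, and in muscle NR4A1 and NR4A3 are known for effects on glucose and fatty acid metabolism. Dusp1, Sik1 and Btg2 act as brakes: DUSP1 dephosphorylates MAP kinases, SIK1 is induced by CREB and restrains its coactivators, and BTG2 slows proliferation and promotes the decay of messenger RNAs.

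The promoters of these genes are known for cAMP response elements (CREs), the sites that CREB binds. RefSeq promoter windows (GRCm38.p6), which run from 250 bases before to 50 bases after a transcription start, were found for 8 of the 10 genes, all but Egr1 and Sik1. Both strands of each window were searched for the full CRE TGACGTCA and for its shorter core TGACG, which the full element contains on each strand. The core was present in 8 of the 8 windows, and in 20.8% of all 32851 windows of the same length. Nr4a1, Nr4a2 and Nr4a3 each had 4 matches and Dusp1 had 3, while 1.03% of all windows had 3 or more. The full CRE was found in Dusp1 and Btg2, and in 1.79% of all windows. The CArG box, the NR4A monomer site AAAGGTCA and the AP-1 site TGANTCA were in 0 of these 8 windows, which do not include Egr1, and in 1.63%, 1.51% and 7.81% of all windows. Sites more than 250 bases before the start were not searched, so their absence from these promoters cannot be read from this. The 250 bases before the start are shown for the called gene (Dusp1), for the NR4A receptor with the highest level (Nr4a1), for the one with the widest spread (Nr4a3) and for Fos, each read 5′ to 3′ in the direction of transcription, with every match to the core TGACG or to its reverse complement CGTCA in capitals.
Dusp1, chr17:26508473-26508722, minus strand: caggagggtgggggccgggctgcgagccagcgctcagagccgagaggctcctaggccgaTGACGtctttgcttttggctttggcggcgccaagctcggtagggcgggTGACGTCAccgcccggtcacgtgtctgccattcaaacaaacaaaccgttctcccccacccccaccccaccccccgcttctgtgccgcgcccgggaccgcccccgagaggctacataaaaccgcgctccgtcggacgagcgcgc
Nr4a1, chr15:101266596-101266845, plus strand: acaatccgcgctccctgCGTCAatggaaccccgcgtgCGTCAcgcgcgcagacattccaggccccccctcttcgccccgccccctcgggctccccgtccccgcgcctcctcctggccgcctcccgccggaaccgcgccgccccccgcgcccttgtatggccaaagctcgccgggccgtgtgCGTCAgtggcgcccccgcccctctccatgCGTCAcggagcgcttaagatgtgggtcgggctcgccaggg
Nr4a3, chr4:48045055-48045304, plus strand: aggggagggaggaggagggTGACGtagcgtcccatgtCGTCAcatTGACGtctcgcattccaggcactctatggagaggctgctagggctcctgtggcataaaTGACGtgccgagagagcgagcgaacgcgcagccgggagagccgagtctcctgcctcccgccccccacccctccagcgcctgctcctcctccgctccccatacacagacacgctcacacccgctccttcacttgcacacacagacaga
Fos, chr12:85473640-85473889, plus strand: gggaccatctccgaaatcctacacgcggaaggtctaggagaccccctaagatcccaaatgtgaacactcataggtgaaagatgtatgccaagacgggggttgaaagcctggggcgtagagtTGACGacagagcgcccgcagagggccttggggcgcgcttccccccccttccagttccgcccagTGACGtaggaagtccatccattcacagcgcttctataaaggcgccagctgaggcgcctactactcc
In Dusp1 the full CRE began at base -143 from the start, and in Btg2 at base -166. The matches of Nr4a3 lay between bases -231 and -147, and those of Nr4a1 fell into a far pair at -233 and -213 and a near pair at -69 and -40. These matches describe letters in a window and do not show that a factor bound there.

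The libraries were similar in depth, with approximately 9514787 to 15057271 reads each, with overlapping groups and medians of 12148182 in GDF15, 13949577 in Vehicle and 14268720 in PairFed. Acta1, the skeletal muscle actin gene, had 406969 to 489550 normalized counts in every library. A list of 6 endothelial markers summed to 5089 to 6064 in Vehicle, 4313 to 5344 in GDF15 and 4471 to 5368 in PairFed. The medians were 5782, 4712 and 4850. As a covariate this sum therefore overlaps with the difference from Vehicle, and a pass lost with it does not show which of them a gene follows. A list of 5 macrophage markers summed to 116 to 242, 101 to 299 and 88.2 to 254 in Vehicle, GDF15 and PairFed. These ranges overlapped, with medians of 148, 250 and 155. In the same order, 3 red blood cell markers summed to 259.5 to 3146, 838 to 2556 and 79.9 to 3743. Those ranges overlapped too, but the medians were 419, 1846 and 2009. A list of 3 granulocyte markers summed to at most 59.4 in any library. In whole muscle, fewer cells of a type and less RNA per cell cannot be told apart. The labels do not say more about the source of replicates than a mouse number, and each library was treated as 1 mouse.

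Levels between genes were compared as normalized counts per kilobase of the longest coding transcript. Nr4a1 was the most abundant of the 10 at 1040 per kb on average over the 16 mice, followed by Dusp1 at 414, Btg2 at 100.5, Egr1 at 69.5, Junb at 65.5, Fos at 43.6, Sik1 at 28.9, Atf3 at 26.5, Nr4a3 at 21.5 and Nr4a2 at 4.24. Nr4a1 exceeded Dusp1, Dusp1 exceeded Btg2 and Btg2 exceeded Egr1 in 16 of 16 mice. The order was not kept in every mouse below that: Egr1 exceeded Junb in 10 of 16 mice, Fos exceeded Sik1 in 12, Sik1 exceeded Atf3 in 12 and Atf3 exceeded Nr4a3 in 11. Nr4a1 made up 92.0% to 99.4% of the summed per-kb level of the NR4A trio. The lowest share belonged to GDF15 mouse 4, in which Nr4a3 reached 7.44% of the trio, against a median of 1.53% in its group. Nr4a2 was near the limit of detection, with approximately 6.87 to 30.6 reads per library.

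**Figure D1:**
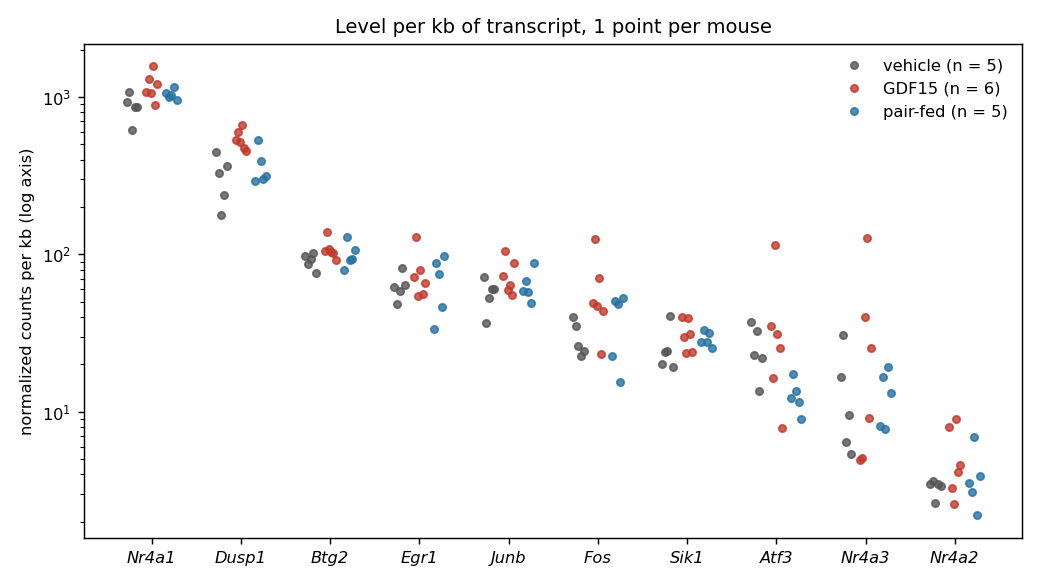
Normalized counts per kilobase of the longest coding transcript (log axis) for the 10 genes, 1 point per mouse, coloured by group (Vehicle n = 5, GDF15 n = 6, PairFed n = 5). Genes are ordered by their mean over the 16 mice, from Nr4a1 (1040 per kb) to Nr4a2 (4.24 per kb), and the points of Nr4a3 and Atf3 are the most scattered.

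In GDF15-treated compared with vehicle-treated mice, Dusp1 rose 1.81-fold and was the only 1 of the 10 genes past both thresholds, which were 0.1 for the adjusted p and a difference of more than 0.6 on the log2 scale in either direction. Fos, Nr4a1, Nr4a3, Nr4a2, Junb, Sik1, Btg2, Egr1 and Atf3 had positive fold changes that did not pass, and of these Atf3 turned negative in 3 of 33 alternative settings and Nr4a3 and Junb in 1 each. Of all tested genes, 0.304% passed both thresholds in this comparison, and 0.203% did so in the upward direction. The median log2 fold change of the 10 genes was 0.41, beside 0.00 for all tested genes, of which 50.4% were above 0. By limma, 3 of the 10 genes (Dusp1, Nr4a1 and Fos) had an unadjusted p under 0.05, beside 11.0% of all tested genes.

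Dusp1 (ENSMUSG00000024190.7, GRCm38 chr17:26505590-26562128, minus strand), which encodes a dual-specificity phosphatase acting on p38, JNK and ERK, had normalized counts of 892, 653, 352, 472 and 723 in Vehicle mice 1 to 5. In the GDF15 mice its lowest count was 901, its median 1045 and its highest 1314. All 6 GDF15 mice lay above all 5 Vehicle mice, although the lowest GDF15 mouse (901) and the highest Vehicle mouse (892) were close. Groups did not overlap for 1.65% of tested genes, and did so in the upward direction for 0.785%, and Dusp1 was the only 1 of the 10 among them. The means were 1074 ± 156 (SD, n = 6) in GDF15 and 618 ± 212 (SD, n = 5) in Vehicle, a log2 fold change of 0.86 (SE 0.20, 95% confidence interval 0.44 to 1.27, limma adjusted p = 0.0744). The exact permutation test over the mice gave a two-sided p of 0.00433, the smallest that 6 against 5 mice allow. The call was lost when Vehicle mouse 2, 3 or 4 or GDF15 mouse 1, 2 or 4 was left out, with limma adjusted p-values of 0.124, 0.160, 0.149, 0.113, 0.148 and 0.142 in that order and log2 fold changes of 0.67 to 0.89. It was also lost, at log2 fold changes of 0.79 to 0.90, with the depth of the libraries as a covariate (limma adjusted p = 0.172), with the mouse number as a block (0.146), without the trend of variance on expression (0.156) and with the endothelial, macrophage or red blood cell marker sum as a covariate (0.439, 0.149 and 0.168). Exons of Dusp1 share positions with Ergic1 on the opposite strand, and the strand setting of the counting is not given in the sources used here.

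**Figure D2:**
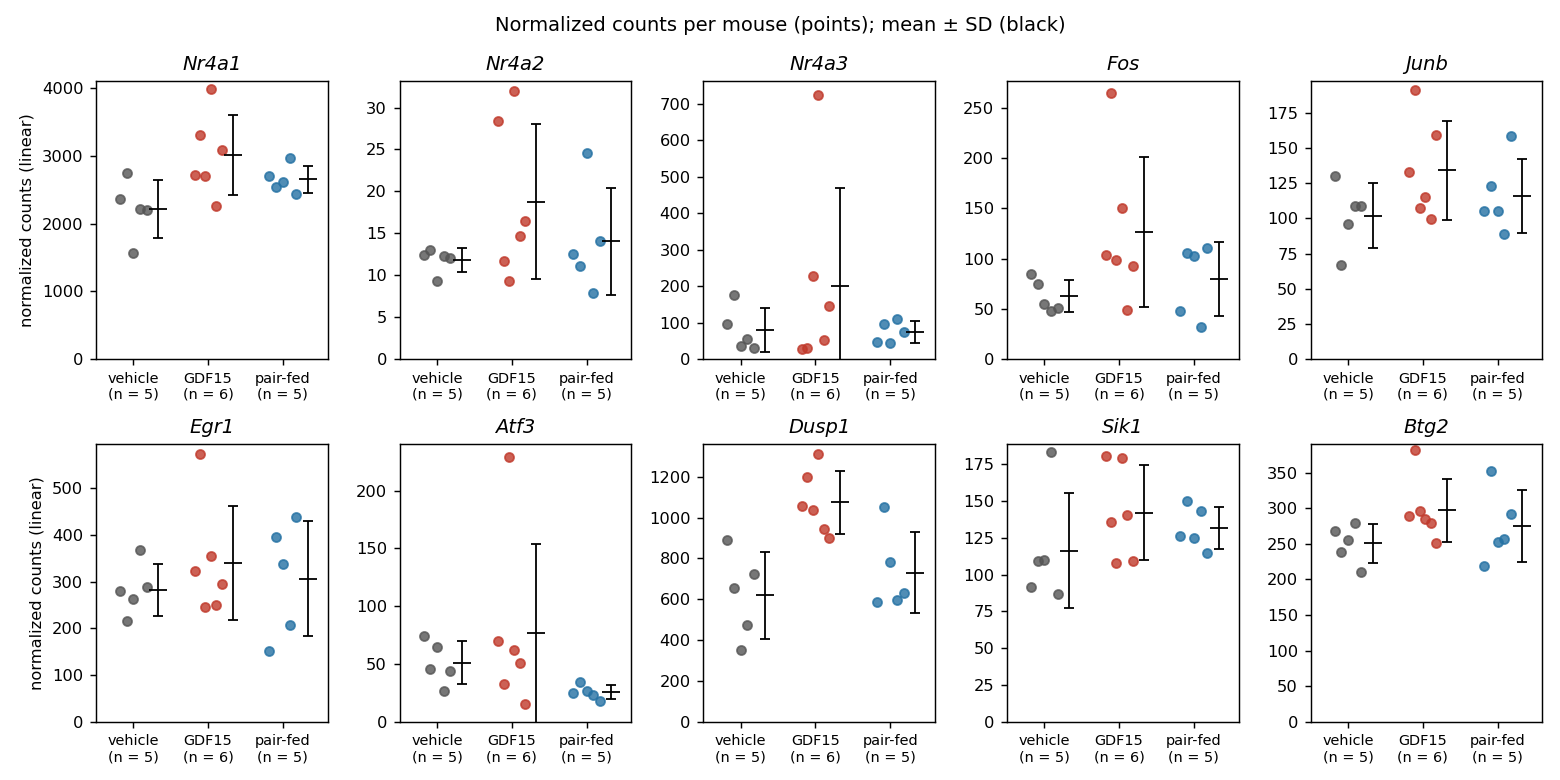
Normalized counts (linear axes starting at 0) of each of the 10 genes in Vehicle (n = 5), GDF15 (n = 6) and PairFed (n = 5), with 1 point per mouse and the group mean ± SD in black (bars are cut at 0). For Dusp1 the GDF15 points run from 901 to 1314 and lie above every Vehicle point, while for the other 9 genes the GDF15 and Vehicle points overlap.

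Among the NR4A receptors, Nr4a1 (chr15:101254269-101274795) had the most precise difference. Its counts were 2365, 2745, 1563, 2213 and 2210.3 in Vehicle mice 1 to 5, and 2268, 2910 and 3989 at the lowest, median and highest GDF15 mouse. All 6 GDF15 mice were above the Vehicle median and 3 of them were above every Vehicle mouse. The log2 fold change was 0.44 (95% confidence interval 0.17 to 0.71) and did not pass the thresholds (limma adjusted p = 0.181), with an exact permutation p of 0.0303 that was not adjusted for the number of genes. Nr4a3 (chr4:48045153-48086447) had counts of 95.4, 176, 36.9, 54.7 and 31.0 in Vehicle and a range of 28.1 to 722 around a median of 98.7 in GDF15. Its highest value, in GDF15 mouse 4, was 25.7 times its lowest, in GDF15 mouse 1, and the interval of its log2 fold change of 0.65 reached from -0.77 to 2.08. Without GDF15 mouse 4 that fold change was 0.089. Nr4a2 (chr2:57106830-57124003) was at 9.37 to 13.0 in Vehicle and at 9.30 to 31.9 in GDF15, with a log2 fold change of 0.50 (limma adjusted p = 0.592).

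Of the genes for AP-1 and related factors, Fos (chr12:85473890-85477273), whose product pairs with JUN proteins, had counts of 84.5, 74.4, 55.3, 47.4 and 51.2 in Vehicle. Its lowest, median and highest GDF15 values were 49.3, 101 and 265, and 5 of the 6 GDF15 mice were above every Vehicle mouse. The log2 fold change of 0.85 (SE 0.36) was close to that of Dusp1 in size, but its error was larger and it did not pass (limma adjusted p = 0.391; exact permutation p = 0.0390, unadjusted). Junb (chr8:84974484-84978718), another AP-1 gene, had 66.6 to 130 counts in Vehicle and 99.5 to 191 in GDF15, with a log2 fold change of 0.39 (limma adjusted p = 0.464); its exons share positions with Prdx2 on the opposite strand. Egr1, on chromosome 18, encodes a zinc finger factor induced through serum response factor, and its log2 fold change was 0.23 with an interval of -0.30 to 0.75. Atf3 (chr1:191170296-191218039), a stress-induced factor, had 26.8 to 74.1 counts in Vehicle and 15.56 to 229 in GDF15, and its log2 fold change of 0.18 turned to -0.23 without GDF15 mouse 3 and to -0.03 without Vehicle mouse 4.

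The remaining brakes differed less than Dusp1. Btg2 (chr1:134075170-134079120) had 210.4 to 279 counts in Vehicle and 252 to 382 in GDF15, where 5 of 6 mice were above every Vehicle mouse. Its log2 fold change was 0.24 (SE 0.12, limma adjusted p = 0.461; exact permutation p = 0.0390, unadjusted). Sik1 (chr17:31844250-31855804) had 86.7 to 184 counts in Vehicle and 108 to 181 in GDF15, and 0 of the 6 GDF15 mice exceeded the highest Vehicle mouse. Its log2 fold change was 0.31 (interval -0.06 to 0.68). Sik1 and Dusp1, both known CREB targets, differed in call, but the difference between their fold changes was not tested.

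**Figure D3:**
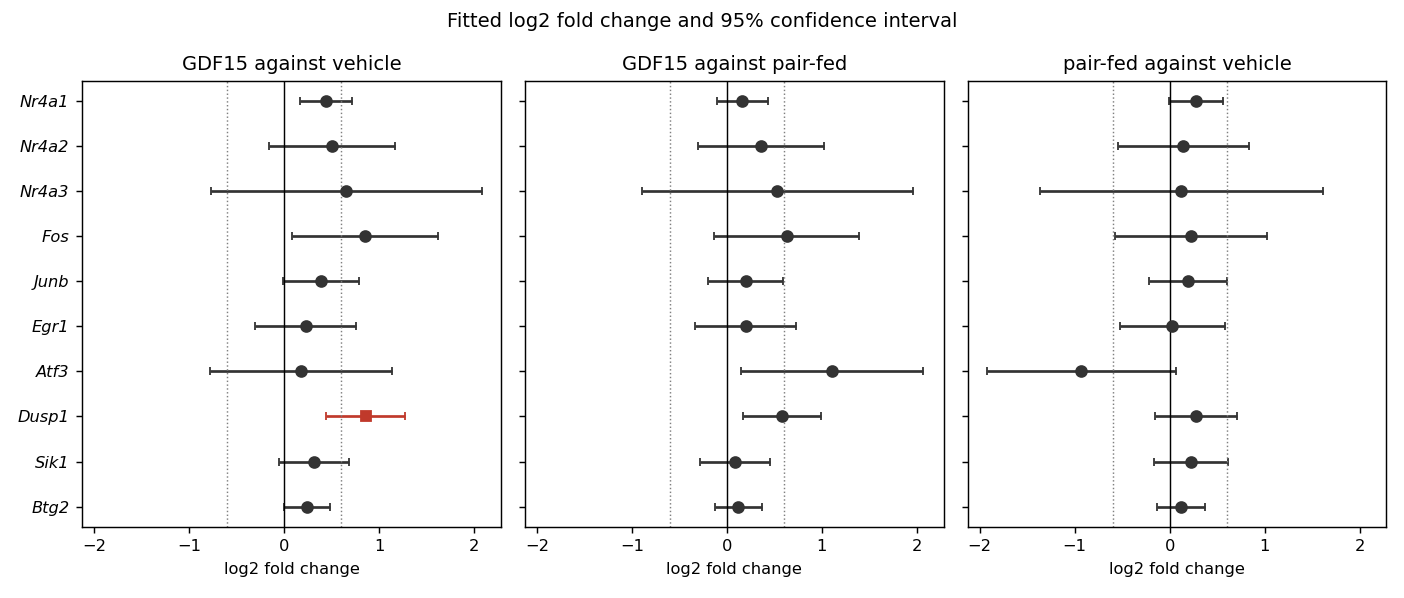
Fitted log2 fold change (points) with its 95% confidence interval (bars) for the 10 genes in each of the 3 comparisons, with dotted lines at -0.6 and 0.6. Dusp1 in GDF15 against Vehicle (0.86, square) is the only value past both thresholds, and the interval of Nr4a3 is the widest in each panel.

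Compared with pair-fed mice, GDF15-treated mice had the largest fold change in Atf3 (2.15-fold) and the next in Fos (1.54-fold), but 0 of the 10 genes passed both thresholds by limma. At an unadjusted p under 0.05 there were 2 genes, Dusp1 and Atf3. Of all tested genes 0.279% passed both thresholds, 13.2% had an unadjusted p under 0.05, and the groups did not overlap for 1.77%, against 0 of the 10 genes. The 10 fold changes were all positive, beside 50.8% of all tested genes, with a median log2 of 0.28 beside 0.00. This comparison uses the same GDF15 mice as the comparison with vehicle, so the shared direction is not a second observation. Nr4a3 turned to -0.03 without GDF15 mouse 4 and Egr1 to -0.03 without PairFed mouse 2, and each turned negative in 1 other of the 33 alternative settings.

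Dusp1 had counts of 585, 1053, 783, 597 and 629 in PairFed mice 2 to 6. All 6 GDF15 mice were above the PairFed median and 3 of 6 were above every PairFed mouse, the overlap being due to PairFed mouse 3 (1053). The PairFed mean was 730 ± 198 (SD, n = 5) and the log2 fold change was 0.58 (SE 0.20, interval 0.17 to 0.99, limma adjusted p = 0.194; exact permutation p = 0.0173, unadjusted). Without PairFed mouse 3 it was 0.72 and passed (limma adjusted p = 0.0689).

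Atf3 had counts of 24.4, 34.5, 26.9, 22.9 and 17.9 in PairFed mice 2 to 6, a narrow range at the low end of the values of the other groups. In GDF15 4 of 6 mice were above every PairFed mouse, and GDF15 mouse 6, at 15.56, was below them all. The log2 fold change was 1.11 (SE 0.46, interval 0.15 to 2.06, limma adjusted p = 0.301; exact permutation p = 0.0693), and it became 1.45 and passed when GDF15 mouse 6 was left out (limma adjusted p = 0.0995). Fos had counts of 47.4, 106, 102, 32.4 and 111 in PairFed mice 2 to 6, which fell into 3 high and 2 low mice, and its log2 fold change was 0.63 (SE 0.36).

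None of the 3 NR4A receptors passed the thresholds against pair-fed mice, and all 3 intervals included 0. Nr4a1 had counts of 2699.6, 2544, 2623, 2971 and 2442 in PairFed mice 2 to 6, the narrowest range of the 3 groups, and its log2 fold change was 0.16 (interval -0.11 to 0.44). Nr4a3 had 44.6 to 110.4 counts in PairFed and a log2 fold change of 0.53 (interval -0.90 to 1.96). Nr4a2 had 7.84 to 24.6 counts and a log2 fold change of 0.36. For Junb, Egr1, Sik1 and Btg2 the log2 fold changes were between 0.09 and 0.20, with limma adjusted p-values of 0.698 to 0.876.

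In pair-fed compared with vehicle-treated mice Atf3 had the largest difference, at 0.525 of the vehicle level, and it was the only gene of the 10 with a negative fold change. By limma 0 of the 10 genes passed both thresholds and 0 had an unadjusted p under 0.05. Of all tested genes 0.819% passed both thresholds, 18.9% had an unadjusted p under 0.05, and the groups did not overlap for 5.44%, against 0 of the 10 genes. Of the 10 fold changes 9 were positive, beside 50.2% of all tested genes, and their median log2 was 0.17 beside 0.00. Several of these signs were not stable: Egr1 turned negative in 6 of 33 alternative settings, Nr4a3 in 4, Fos and Junb in 1 each, and Nr4a2 in 1 of 32. The linear mean of Nr4a3 was lower in PairFed (74.3) than in Vehicle (78.7).

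For Atf3, Vehicle mice 1 to 5 had counts of 74.1, 45.5, 64.9, 26.8 and 43.5, and all 5 PairFed mice were below the Vehicle median of 45.5. The means were 25.4 ± 6.10 (SD, n = 5) in PairFed and 51.0 ± 18.7 (SD, n = 5) in Vehicle. The log2 fold change was -0.93 (SE 0.48, interval -1.93 to 0.07, limma adjusted p = 0.302; exact permutation p = 0.0238, unadjusted, with a smallest possible value of 0.00794). When only these 2 groups were fitted, which leaves out the wide spread of the GDF15 mice, the same fold change passed (limma adjusted p = 0.0787). Nr4a1 was 1.21-fold the vehicle level, with all 5 PairFed mice above the Vehicle median (limma adjusted p = 0.274; exact permutation p = 0.0556). Dusp1 was 1.21-fold the vehicle level, with 2 of 5 PairFed mice above the Vehicle median (limma adjusted p = 0.515). The other 7 genes had log2 fold changes between 0.03 and 0.23.

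The 10 genes varied more from mouse to mouse than most genes. The within-group SD on the log2 scale was 1.31 for Nr4a3, 0.86 for Atf3, 0.69 for Fos, 0.52 for Nr4a2, 0.48 for Egr1, 0.38 for Dusp1, 0.34 for Junb, 0.32 for Sik1, 0.25 for Nr4a1 and 0.21 for Btg2. The median over all tested genes was 0.17. Nr4a3 exceeded 99.7% of the tested genes, Atf3 98.6% and Fos 97.0%, while Nr4a1 exceeded 66.9% and Btg2 59.2%. Nr4a2 and Atf3 reached as few as 6.87 and 13.8 approximate reads in a library, where counting noise adds to the spread, while Nr4a3 reached down to 30.3 and Fos to 28.4.

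It was also asked whether the genes were high and low in the same mice, apart from treatment. After the group means had been removed, 31 of the 45 pairs of the 10 genes had a positive Pearson correlation over the 16 mice, with a median r of 0.19. Fos, Junb, Egr1 and Btg2 had r of 0.43 to 0.74 with each other, but Fos and Junb dropped from 0.56 to 0.31, and Junb and Btg2 from 0.43 to 0.20, without the 2 mice farthest from the median. An unadjusted permutation p under 0.05 was found for 6 pairs, and 0 pairs had a Benjamini-Hochberg adjusted p under 0.05. The pair with the smallest p was Junb and Egr1 (r = 0.69, permutation p = 0.00263, adjusted p = 0.118; rho = 0.66, permutation p = 0.00667, adjusted p = 0.172; r = 0.56 without the 2 mice farthest from the median of Junb). Egr1 and Btg2 followed (r = 0.74, permutation p = 0.00586, adjusted p = 0.132; rho = 0.62, permutation p = 0.0273, adjusted p = 0.308; r = 0.43 without the 2 farthest mice). Fos and Egr1 had r = 0.74 (permutation p = 0.00947, adjusted p = 0.142; rho = 0.76, permutation p = 0.00832, adjusted p = 0.172; r = 0.64 without the 2 farthest mice), with r = 0.90 within GDF15, 0.87 within PairFed and -0.63 within Vehicle.

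Dusp1, the called gene, was most closely correlated with Fos. Fos and Dusp1 had r = 0.53 (permutation p = 0.0126, adjusted p = 0.142; rho = 0.59, permutation p = 0.0115, adjusted p = 0.172; r = 0.57 without the 2 farthest mice). Nr4a1 and Nr4a3 had r = 0.56 (permutation p = 0.0675, adjusted p = 0.380; rho = 0.50, permutation p = 0.0924, adjusted p = 0.594), which dropped to 0.23 without GDF15 mouse 4 and Vehicle mouse 3. Nr4a1 and Dusp1 had r = 0.52 (permutation p = 0.0558, adjusted p = 0.359; rho = 0.32, permutation p = 0.251, adjusted p = 0.756), and this relation rested on the same 2 mice, since r was 0.05 without them. The values come from the same libraries, so that depth and dissection are shared between the genes of a pair.

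**Figure D4:**
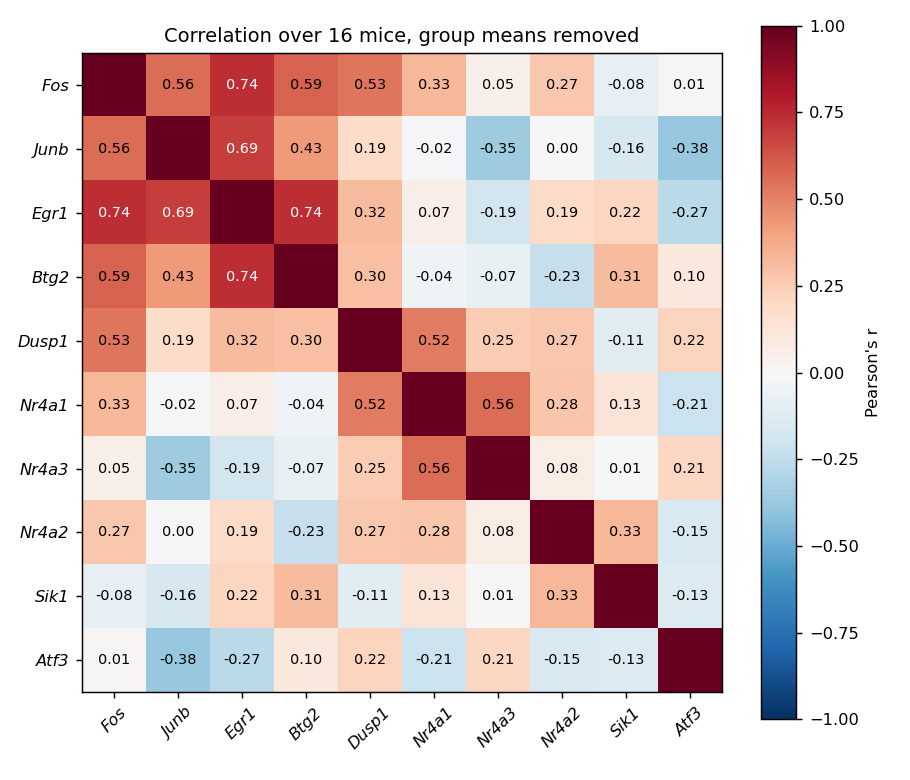
Pearson's r between each pair of the 10 genes over 16 mice, on log2(normalized count + 1) with the group means removed (colour scale from -1 to 1). Fos, Junb, Egr1 and Btg2 form a block of positive values (0.43 to 0.74), and Atf3 and Sik1 reach at most 0.33 with any other gene.

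Among 46 other tested immediate early genes, Per1 was the only 1 to pass both thresholds in any comparison. Per1, a clock gene with a CRE-driven acute response, had 348 to 505 counts in Vehicle, 658 to 1148 in GDF15 and 973 to 1475 in PairFed, so that every GDF15 and PairFed mouse was above every Vehicle mouse. Its log2 fold change was 1.03 in GDF15 against Vehicle (limma adjusted p = 0.00145), 1.46 in PairFed against Vehicle (limma adjusted p = 2.0e-05) and -0.43 in GDF15 against PairFed (limma adjusted p = 0.148). The medians of the list, at log2 fold changes of 0.06, 0.03 and 0.10 in GDF15 against Vehicle, GDF15 against PairFed and PairFed against Vehicle, were below those of the 10 genes. At the p threshold alone, 2, 0 and 5 of the 46 genes passed in these comparisons, beside 0.769%, 2.17% and 6.37% of all tested genes.

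Jun, the partner of Fos in AP-1, had 910.2 to 1281.3 counts in Vehicle, 1280.7 to 1560 in GDF15 and 1235 to 1523 in PairFed. Its log2 fold changes of 0.42 against Vehicle in GDF15 (limma adjusted p = 0.0224) and 0.37 in PairFed (0.0178) passed the p threshold and not the fold threshold, and GDF15 and PairFed differed by 0.05. Neither passed the p threshold with the endothelial marker sum as a covariate, at log2 fold changes of 0.37 and 0.33 (limma adjusted p = 0.373 and 0.352). The GDF15 value also lost its pass with depth as a covariate. Exons of Jun share positions with Junos on the opposite strand. Dusp8, which encodes another MAP kinase phosphatase, was lower in PairFed than in Vehicle by the p threshold alone (log2 fold change -0.43, limma adjusted p = 0.0211). The other genes with the smallest p in a comparison were Errfi1 (0.27 in GDF15 against Vehicle, limma adjusted p = 0.250), Gadd45a (-0.25) and Myc (-0.76), both in GDF15 against PairFed with limma adjusted p = 0.168. In PairFed against Vehicle Gadd45a was higher by the p threshold alone (0.33, limma adjusted p = 0.0388), as was Cebpb, named after its values were seen (0.45, limma adjusted p = 0.0249).

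**Figure D5:**
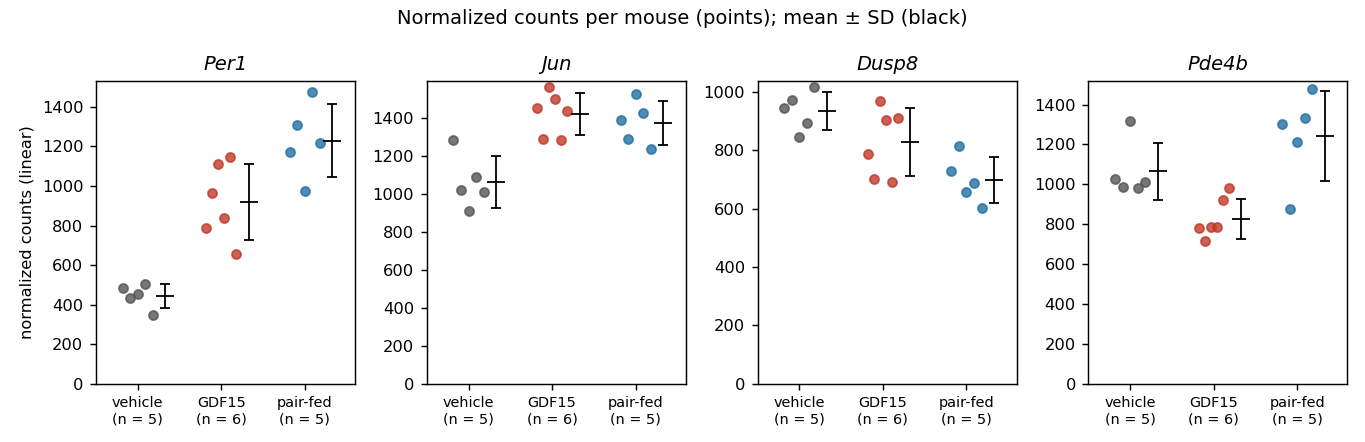
Normalized counts (linear axes starting at 0) of Per1, Jun, Dusp8 and Pde4b in Vehicle (n = 5), GDF15 (n = 6) and PairFed (n = 5), with 1 point per mouse and the group mean ± SD in black. Per1 is above every Vehicle mouse in all GDF15 and PairFed mice, and Pde4b has its lowest mean in GDF15 (828.5).

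Of 20 tested regulators of cAMP, CREB and the salt-inducible kinases, 0 passed both thresholds by limma in any comparison. Pde4b, which encodes a phosphodiesterase that degrades cAMP, came closest, with 717 to 979 counts in GDF15, 876 to 1480 in PairFed and 982 to 1318 in Vehicle. In GDF15 against PairFed its log2 fold change of -0.57 passed the p threshold (limma adjusted p = 0.0302) and lay just under the fold threshold, and against Vehicle it was -0.36 (limma adjusted p = 0.230). The comparison with PairFed passed both thresholds with depth as a covariate (-0.64, limma adjusted p = 0.0456) and without GDF15 mouse 5 (-0.60, 0.0321), GDF15 mouse 6 (-0.62, 0.0224) or PairFed mouse 3 (-0.69, 0.00114). Over 33 alternative settings its log2 fold change ranged from -0.69 to -0.45, so it also moved away from the fold threshold. The limma adjusted p reached 0.0969 with the macrophage sum as a covariate. Hdac9 (0.40) and the coactivator gene Ppargc1a (0.27) followed in GDF15 against PairFed, with limma adjusted p-values of 0.152 and 0.230. In GDF15 against Vehicle the smallest p of the list belonged to Mef2c (-0.17, limma adjusted p = 0.141), and Hdac4 (-0.32) came after Pde4b. In PairFed against Vehicle the leading genes were Mef2c (-0.16, limma adjusted p = 0.0747, the only 1 past the p threshold), Atf1 (-0.21) and Hdac9 (-0.28). The pass of Mef2c was lost in 10 of 31 alternative settings, 6 of them with a single library left out. Of 20 tested regulators of serum response factor and MAP kinases, 0 passed both thresholds by limma. The leading genes were Mapk8 (-0.18), Mrtfa (-0.31) and Elk3 (-0.33) in GDF15 against Vehicle, Mrtfb (-0.20), Mapk14 (0.14) and Mapk7 (-0.30) in GDF15 against PairFed, and Mapk14 (-0.22), Mrtfa (-0.31) and Mapk8 (-0.14) in PairFed against Vehicle, and only Mapk14 in the last passed the p threshold (limma adjusted p = 0.0502). The pass of Mapk14 was lost in 5 of 31 alternative settings.

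Of 17 tested muscle genes described as responsive to NR4A1 or NR4A3, 0 passed both thresholds by limma in any comparison, and the medians of their log2 fold changes were 0.02 in GDF15 against Vehicle, -0.09 in GDF15 against PairFed and 0.00 in PairFed against Vehicle. The glycogen phosphorylase gene Pygm (0.22), the phosphofructokinase gene Pfkm (0.19) and the phosphorylase kinase gene Phka1 (0.21) were higher in PairFed than in Vehicle by the p threshold alone (limma adjusted p = 0.0289, 0.0178 and 0.0746). These 3 passes were not stable: with quantile normalization Pygm was at 0.0735 and Pfkm at 0.0385 and neither passed, and with the endothelial marker sum as a covariate Phka1 was at 0.0797 (limma adjusted p = 0.802) and Pygm and Pfkm did not pass either. In all, 4 of the 17 genes were higher and 1 was lower by that threshold, beside 6.37% of all tested genes in either direction. The remaining genes, named after their values were seen, were the phosphorylase kinase gene Phkg1 (0.16, limma adjusted p = 0.0879) and the fatty acid transporter gene Cd36, which was lower (-0.48, limma adjusted p = 0.0936). In GDF15 against PairFed the same 3 genes led with -0.16, -0.13 and -0.22, of which Phka1 passed the p threshold (limma adjusted p = 0.0908). That pass was lost in 18 of 31 alternative settings, 12 of them with a single library left out. In GDF15 against Vehicle the leading genes were Pdk4 (-0.71, limma adjusted p = 0.254), Ppargc1b (-0.40) and the glucose transporter gene Slc2a4 (0.10).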

How the data were processed

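Total RNA of 16 tibialis anterior muscles was sequenced. The authors used Trim Galore for trimming, Salmon for quantification and DESeq2 for scaling (mm10 in the submitters' processing notes, versions not given in the sources used here), and deposited log2 values, 1 per gene and library. The authors' values have the form of a variance stabilizing transformation (DESeq2), with 7.32 standing for a count of 0, and were transformed back to normalized counts; this unit differed from the name of the table. Depth was approximated from the smallest step of genes with a single transcript. Whole reads were not recovered, so no count test was run.

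The 11841 genes averaging 10 or more normalized counts were fitted on log2(normalized count + 1) with limma 3.58.1 (R 4.3.3; all 3 groups, trend, no covariate), with Benjamini-Hochberg adjustment over all of them. Fold changes are on that scale and understate the change of low genes. Genes were called at an adjusted p under 0.1 and a log2 difference exceeding 0.6 in either direction, the study's thresholds for this muscle. Exact permutation tests over the mice, two-sided, used scipy 1.17.1, and correlations 100000 permutations within groups. The fit was run on simulated counts in which every gene had the same spread setting. That run does not show how the fit performs for genes as variable as Nr4a3, Atf3 and Fos. Gene positions came from GENCODE vM21 (GRCm38) and promoters from RefSeq. P-values measure the spread between these mice. Mouse numbers recur across groups but mark different animals, and same-numbered libraries did not deviate together (r from -0.099 to 0.067 over 14 pairs).

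The genes, lists and markers were chosen with earlier results of these data known. Named from each list were genes past both thresholds and the 3 with the smallest limma p in each comparison. Alternatives were other pseudocounts, minimum counts, scalings, weights, thresholds, blocks and covariates, the deposited values, and each library left out.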

Additional observations from a re-analysis of the deposited data

Results flagged for a closer look

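In 30 sets of values (10 genes in 3 groups), 1 mouse lay farther from its group than Dixon's criterion allows: Nr4a2 in Vehicle mouse 3 was at 9.37 normalized counts, the lowest of its group, with the next at 12.04. The gap was 0.755 of the group's range on the log2 scale, against a critical value of 0.710. About 1 in 20 such sets is expected to exceed it by chance, and approximate reads of Nr4a2 were few in every library.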

How the results depend on the processing

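Across 987 alternative values of the 10 genes, 949 kept their direction and their side of the thresholds, 13 lost a call (all of Dusp1 in GDF15 against Vehicle), 3 gained a call and 22 changed sign. In some settings the sign could not change. These were no trend, only the 2 groups compared, another threshold, and a library left out of the group not compared. The 0 pairs with an adjusted p under 0.05 stayed 0 under every alternative run. Of 1187 values of the genes named from lists, 1 changed sign (Ppargc1b in GDF15 against Vehicle, 0.057 with the endothelial covariate) 0 lost a call and 15 gained one, of which 10 did so because the fold threshold was dropped. Of the other 5, 4 were Pde4b and 1 was Myc without GDF15 mouse 1 (-0.88, limma adjusted p = 0.0870), both in GDF15 against PairFed. In the comparison that named their gene, 10 results passed the p threshold alone. Of these, 9 lost it in at least 1 of 31 alternative settings and 8 with the endothelial sum. With that sum the 8 log2 fold changes were 0.37 and 0.33 (Jun), -0.41 (Dusp8), -0.16 (Mapk14), -0.14 (Mef2c), 0.13 (Pygm), 0.17 (Pfkm) and 0.080 (Phka1). Over all 31 settings the highest limma adjusted p was 0.373 and 0.352 for Jun, 0.310 for Dusp8, 0.553 for Mapk14 and 0.512 for Mef2c. It was 0.511 for Pygm, 0.411 for Pfkm (quantile normalization), and 0.802 and 0.241 for Phka1 (the latter without PairFed mouse 5). Gadd45a in PairFed against Vehicle, named by another comparison, was not run through the alternatives. The marker covariates were chosen after seeing the data. The median of all genes moved by under 0.1 under each scaling.

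In GDF15 against Vehicle, Dusp1 ranged from 0.63 to 1.01 with limma adjusted p-values of 0.0257 to 0.439, and the number of the 10 genes called was 0 with no trend, with the replicate block, with depth, endothelial, macrophage or red blood cell sums as covariates and at an adjusted p under 0.05, and 0 to 1 with libraries left out. In PairFed against Vehicle the number called was 1 (Atf3, -0.93) when only the 2 groups were fitted. In GDF15 against PairFed it was 0 to 1 with libraries left out.

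With depth as a covariate Nr4a3 became -0.70 against PairFed and -0.47 against Vehicle, and Atf3 -0.10 against Vehicle. With the endothelial sum Junb became -0.10 in GDF15 against Vehicle, and Fos, Junb and Egr1 became -0.11, -0.27 and -0.054 in PairFed against Vehicle. With the macrophage sum Egr1 became -0.018 against PairFed. With the replicate block, which the numbers do not justify, Nr4a3 became -0.0835 and Egr1 -0.0275 in PairFed against Vehicle. With libraries left out, GDF15 against PairFed ranged from -0.034 to 0.89 for Nr4a3 and from -0.027 to 0.35 for Egr1, GDF15 against Vehicle from -0.23 to 0.53 for Atf3, and PairFed against Vehicle from -0.07 to 0.31 for Nr4a2, from -0.13 to 0.48 for Nr4a3 and from -0.13 to 0.25 for Egr1. The cause of these shifts was not tested.

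Over all tested genes, 33 were called in GDF15 against PairFed, 7 on the deposited log2 values, 15 with the macrophage sum, 18 at an adjusted p under 0.05, 257 with no fold threshold and 15 to 62 with libraries left out. In GDF15 against Vehicle 36 were called, 9 on the deposited values, 20 with the replicate block, 19 with depth, 10 with the endothelial sum, 23 with the red blood cell sum, 23 at an adjusted p under 0.05, 91 with no fold threshold and 21 to 38 with libraries left out. In PairFed against Vehicle 97 were called, 17 on the deposited values, 13 with the endothelial sum, 56 at an adjusted p under 0.05, 754 with no fold threshold and 60 to 157 with libraries left out. The deposited log2 scale compresses the fold changes of low genes. How much of the drop in these counts comes from that was not tested. A minimum mean of 50 leaves Nr4a2 untested.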

Other observations

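The 5 other genes whose values most resembled the mean of the 10 standardized genes over the 16 mice, with the group means removed, were Taf1b (r = 0.86), Pxmp4 (0.85), Fkbp5 (0.83), Sfrp1 (0.82) and Thbd (0.82). They were the highest of all tested genes outside the 10, so these values describe the ranking and carry no test. Fkbp5 is a target of glucocorticoid receptor signalling and Thbd an endothelial gene. The mean standardized deviation of the 10 genes was highest in GDF15 mouse 4 (0.84), the shallowest library at approximately 9514787 reads, and lowest in GDF15 mouse 5 (-0.77). It did not follow depth throughout. PairFed mouse 3, at approximately 14344100 reads, was next highest (0.67), and the next shallowest library, GDF15 mouse 3 (10521937), was at -0.21.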
